A study of Mus musculus with 10 samples.

Results

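The 10 hearts of this series fell into a pair of sets that cross the treatment groups and that the labels do not name. Set A held no-treatment hearts 1, 3 and 4 and aldosterone hearts 3 and 5, and set B held no-treatment hearts 2 and 5 and aldosterone hearts 1, 2 and 4. All 10 of the 10 hearts belong to a set, 5 to each. Each heart was the ventricle of a male mouse that was either left untreated (control) or given aldosterone for 7 days, with 5 mice in each group and each mouse numbered separately in the labels. The labels carry the word Ctrl for all 10 mice, those given aldosterone included; here control means no treatment. The dose, route, strain and age are not given in the sources used here. Heart RNA carried the dye Cy5 and was hybridised to a 2-colour Agilent array against a common reference, RNA pooled from liver, brain, heart, kidney and spleen and labelled with Cy3. Values are log2 ratios of heart over reference from the authors' deposited table. Scanner files of 9 arrays were also used, 5 of set A and 4 of set B, since aldosterone heart 4 had values in the table alone.

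Aldosterone, a hormone of the adrenal cortex, binds the mineralocorticoid receptor, which heart muscle cells also carry. The ventricular muscle cell relies on potassium currents to end each beat, on gap junctions to pass the beat on, and on mitochondrial fat oxidation to fuel it. Kcnip2 encodes the subunit KChIP2 of the transient outward potassium channel, Gja1 encodes the main gap junction protein of working heart muscle, and Ppargc1a encodes the coactivator PGC-1alpha, which drives mitochondrial and fat oxidation genes. Slc17a7 encodes a vesicular glutamate transporter best known from neurons, and Dpy19l2 is best known for its need in sperm head formation. Both the sets and the set genes were selected on these same log2 ratios, so every difference between the sets is a description and carries no test.

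The promoters of 4 genes are shown, 2 higher and 2 lower in set A. They were picked from 7 looked at, so that the 3 that hold a searched motif are seen, with Kcnip2 as a marker that holds none; those of Ppargc1a, Slc17a7 and Padi2 also hold none. Each is the RefSeq sequence of the GRCm38.p6 assembly from 250 bases before to 50 after the gene's start, 5′ to 3′ on the gene's own strand, with motif matches in capitals. Kcnip2 lies at chr19:45816014-45816313 on the minus strand, Gja1 at chr10:56377050-56377349 on the plus strand, Dpy19l2 at chr9:24696244-24696543 on the minus strand and Gstm5 at chr3:107895604-107895903 on the plus strand.
Kcnip2: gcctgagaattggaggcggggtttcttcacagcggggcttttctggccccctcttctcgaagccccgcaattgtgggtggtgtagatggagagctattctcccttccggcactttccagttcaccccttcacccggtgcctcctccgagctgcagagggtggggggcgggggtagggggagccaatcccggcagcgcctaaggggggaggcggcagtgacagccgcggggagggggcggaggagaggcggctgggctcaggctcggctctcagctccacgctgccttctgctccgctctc
Gja1: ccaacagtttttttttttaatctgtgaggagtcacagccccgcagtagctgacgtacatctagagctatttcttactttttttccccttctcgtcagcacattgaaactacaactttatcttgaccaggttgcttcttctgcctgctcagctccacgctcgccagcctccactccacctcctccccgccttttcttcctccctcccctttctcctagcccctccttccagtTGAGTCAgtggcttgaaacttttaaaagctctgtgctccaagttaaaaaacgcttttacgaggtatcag
Dpy19l2: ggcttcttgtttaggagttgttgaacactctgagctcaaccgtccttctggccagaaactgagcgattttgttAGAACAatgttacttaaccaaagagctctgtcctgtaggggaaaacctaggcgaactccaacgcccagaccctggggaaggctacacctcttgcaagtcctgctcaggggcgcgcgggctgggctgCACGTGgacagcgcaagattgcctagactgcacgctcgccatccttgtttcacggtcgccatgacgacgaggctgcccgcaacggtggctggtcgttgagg
Gstm5: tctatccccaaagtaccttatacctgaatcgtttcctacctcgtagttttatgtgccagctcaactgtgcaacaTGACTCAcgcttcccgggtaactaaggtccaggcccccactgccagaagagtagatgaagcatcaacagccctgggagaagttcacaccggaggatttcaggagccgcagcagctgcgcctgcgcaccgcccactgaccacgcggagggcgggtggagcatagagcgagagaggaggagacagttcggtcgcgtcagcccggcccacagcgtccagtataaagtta
Gja1 and Gstm5 each hold the AP-1 site TGACTCA or its reverse complement, Dpy19l2 holds the E-box CACGTG and the glucocorticoid receptor motif AGAACA, and Kcnip2 holds none of the motifs searched.

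The hearts separated along the first principal component of all genes, computed after each treatment group was centred on its own mean. Component 1 held 27.2% of the variance and component 2 held 15.2%. Set A scores on component 1 were 8.9, 34.5 and 10.9 for controls 1, 3 and 4 and 24.2 and 25.7 for aldosterone hearts 3 and 5. Set B scores were -30.1 and -24.2 for controls 2 and 5 and -15.9, -12.2 and -21.7 for aldosterone hearts 1, 2 and 4. Control 1, control 4 and aldosterone heart 2 lay nearest to the gap between the sets. Across all genes, and between hearts of different treatment, the correlation of deviations from the group mean lay between 0.04 and 0.32 in the 12 pairs of 1 set. It lay between -0.29 and -0.00446 in the 13 pairs of different sets. Between hearts of the same treatment, where centring on the group mean pushes correlations down, the ranges were -0.16 to 0.13 in 8 pairs of 1 set and -0.46 to -0.19 in 12 pairs of different sets. These correlations are over genes that share arrays and are given as a description.

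**Figure D1:**
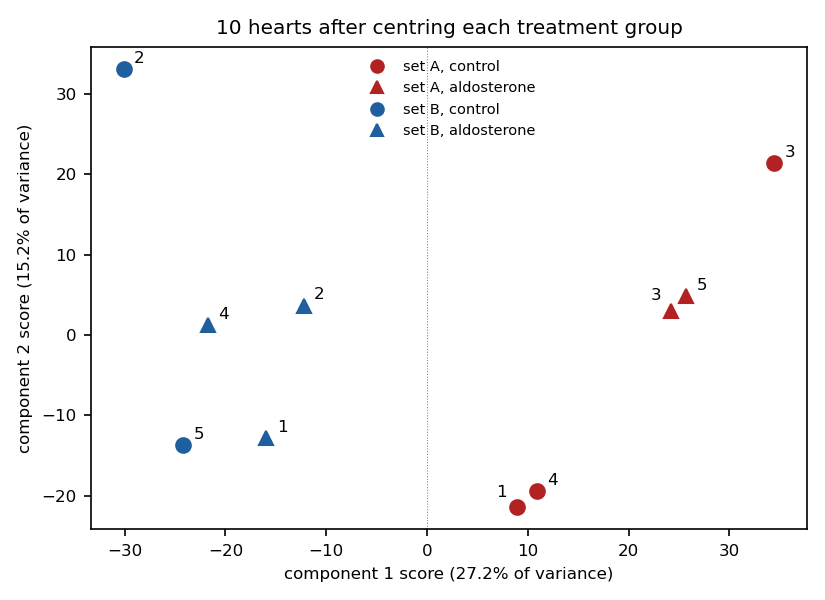
Scores of the 10 hearts on the first 2 principal components of 22048 genes or transcripts after centring each treatment group, with the share of variance on each axis. Circles are controls and triangles aldosterone hearts, numbers are the sample numbers, and the 5 hearts of set A all have positive component 1 scores while the 5 of set B all have negative ones.

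The sets crossed the slides and the treatment groups. Set A had 3 controls and 2 aldosterone hearts, and set B had 2 controls and 3. Of 4 slides, each scanned at 1 time, slides 1, 2 and 4 carried arrays of both sets and slide 3 carried control 4 and aldosterone heart 3, both of set A. The mouse numbers interleaved, with 210, 223, 226, 253 and 272 in set A and 203, 215, 217, 232 and 257 in set B. Litter, cage, age, time of death and dissection are not given in the sources used here, and their part in the sets was not tested.

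A total of 138 of 22048 genes or transcripts had 5 set A hearts and 5 set B hearts that did not overlap and means that differed by at least 1 on the log2 scale with treatment as a covariate. Of these set genes 94 were higher in set A (0.426% of all) and 44 were lower (0.2%). Since the hearts were sorted by these same values, nothing is read from these shares. Without a minimum difference, 1543 genes (7%) were higher in every set A heart than in every set B heart and 1059 (4.8%) were lower. The set genes ran from -2.98 to 4.14. Over all genes the median difference was -0.01 with an SD of 0.30, and 52.9% of genes had a negative one. Differences of at least 2 were found for 17 genes higher and 6 lower in set A. A RefSeq symbol was available for 68 and 34 of the set genes. Just inside the limit of 1 lay Ankrd35 at 1.01, and just outside it lay Dbh at -0.99 and Ryr2 at -0.94. On 9 arrays, 103 of the 138 set genes had Cy5 signals well above background throughout, 67 higher and 36 lower in set A. Another 10 were not well above background on any set B array and 3 on any set A array. The size of their differences was not measured. The filter of at least 4 arrays let these genes in only through the set where they were higher. They stay in the counts of 94 and 44.

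Among genes higher in set A, Gstm5, a mu class glutathione S-transferase, was bright in all hearts. In set A its log2 ratio was 3.63, 0.93 and 3.26 in controls 1, 3 and 4 and 3.23 and 2.86 in aldosterone hearts 3 and 5. In set B it was -0.77 and -0.82 in controls 2 and 5 and -0.93, -0.82 and -0.83 in aldosterone hearts 1, 2 and 4. Set B hearts were nearly alike, and control 3 stood well below the rest of set A without reaching set B. The means were 2.78 ± 1.07 (SD, n = 5) and -0.83 ± 0.06 (SD, n = 5), a difference of 3.65 with treatment as a covariate. Its Cy5 signal was 15513 to 65207 units on set A arrays and 2683 to 4045 on set B arrays, while the Cy3 reference was 2492.5 to 2866.5 and 2882 to 3081. The highest of these, control 1, was saturated, so its ratio is a lower limit.

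Padi2, whose enzyme converts arginine in proteins to citrulline, had log2 ratios of -1.84, -0.21 and -0.05 in controls 1, 3 and 4 and -0.46 and 0.40 in aldosterone hearts 3 and 5. In set B the values were -4.39 and -3.22 in controls 2 and 5 and -3.98, -4.39 and -4.46 in aldosterone hearts 1, 2 and 4. Control 1 was the set A heart nearest to set B for this gene. The difference was 3.68, and a separate Padi2 probe gave 3.92, again without overlap. Slc17a7, the glutamate transporter gene, had values of 0.05, 0.78 and 0.13 in the set A controls 1, 3 and 4 and 0.50 and 0.35 in aldosterone hearts 3 and 5. It had -2.10 and -2.47 in the set B controls 2 and 5 and -1.80, -2.33 and -1.89 in aldosterone hearts 1, 2 and 4. Both sets were tight, with means of 0.36 ± 0.29 and -2.12 ± 0.28 (SD, n = 5 each) and Cy5 signals of 392 to 882.5 and 125 to 147.5 units. Adgrg1, an adhesion G protein-coupled receptor also called GPR56, had 1.38, 0.52 and 1.23 in the set A controls and 1.42 and 1.33 in the aldosterone hearts. Every set B heart lay between -1.06 and -0.84, and the difference was 2.18.

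Dpy19l2 had the largest log2 ratio difference with a symbol, but its set B signal was not measured above background. In set A its values were 4.01, 4.92 and 3.18 in controls 1, 3 and 4 and 3.96 and 4.17 in aldosterone hearts 3 and 5, and in set B they ran from -0.27 to 0.07. The signal was well above background on 5 of 5 set A arrays and on 0 of 4 set B arrays. The size of the ratio difference of 4.14 was therefore not measured. From Cy5 intensities after normexp, loess and Aquantile normalisation, set A was 1.7-fold higher. This fold sets the set A mean against, per set B array, the higher of the probe's own value and the lowest signal above background. For every set gene given such a fold here the probe's own value was the higher, so no detection limit entered. The fold thus takes the dim signal at its measured value. It is an estimate from 1 processing and not a minimum. After loess within arrays alone the log2 difference of Dpy19l2 was 0.68. Hearts of both sets carried Cy5, and with no dye swaps a dye bias that differs between arrays was not tested. Ryr1, the calcium release channel of skeletal muscle (difference 3.41), was 1.59-fold higher by the same estimate. The ribosomal S6 kinase gene Rps6ka6 (3.39) was 1.42-fold higher by it, with control 3 at -3.28 against -0.34 to 0.15 in the rest of set A. Gm10649 (3.13) was 1.53-fold higher by it.

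The remaining genes of the 12 with the largest positive difference were Mmel1, Chrna1, Lrrc75b and Dupd1. Mmel1, a membrane metallopeptidase related to neprilysin, ran from 0.69 to 2.08 in set A and from -2.07 to -0.38 in set B, and another of its probes also did not overlap (3.32 against 2.64). Chrna1, the alpha subunit of the muscle acetylcholine receptor, ran from 3.11 to 5.24 in set A and from 1.89 to 2.72 in set B. Lrrc75b ran from 0.35 to 0.63 and from -1.95 to -1.20. Dupd1, a dual-specificity phosphatase gene, ran from 4.31 to 5.19 and from 2.16 to 3.85, with control 5 the set B heart nearest to set A. Mmel1 was well above background on 2 of the 4 set B arrays and Chrna1 on 3.

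Among genes lower in set A, Kcnip2 separated the hearts with a wide gap. In set A its log2 ratio was 0.61, 0.03 and 0.42 in controls 1, 3 and 4 and -0.09 and -0.22 in aldosterone hearts 3 and 5. In set B it was 1.73 and 2.30 in controls 2 and 5 and 2.01, 2.14 and 2.20 in aldosterone hearts 1, 2 and 4. The means were 0.15 ± 0.35 and 2.08 ± 0.22 (SD, n = 5 each), a difference of -1.97, or 3.92-fold in the deposited ratios and -1.34 on the log2 scale after loess. Its Cy5 signal was 148 to 220 units on set A arrays and 459.5 to 638 on set B arrays, over a Cy3 signal of 121 to 149.5 units. Adra1a, the alpha-1A adrenergic receptor gene, was 0.61, -0.34 and 0.62 in the set A controls 1, 3 and 4 and 0.55 and -0.52 in aldosterone hearts 3 and 5. It was 2.45 and 2.44 in the set B controls 2 and 5 and 1.74, 1.66 and 2.26 in aldosterone hearts 1, 2 and 4. Its signals were dim, at 79 to 99 and 122 to 168 units in Cy5. Corin, the heart protease that activates the precursor of atrial natriuretic peptide, was 0.71, -0.50, 0.34, 0.05 and 0.57 in set A, in the same order of hearts. In set B it was 2.12, 1.79, 2.08, 2.50 and 1.62, and its difference was -1.76 with Cy5 signals of 310.5 to 557 and 1159 to 2242.5 units.

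Gja1 and Ppargc1a differed less but were tight within each set. Gja1 had log2 ratios of 0.52, 0.55 and 0.41 in controls 1, 3 and 4 and 0.60 and 0.38 in aldosterone hearts 3 and 5 of set A. In set B it had 1.42 and 1.61 in controls 2 and 5 and 1.85, 1.77 and 1.45 in aldosterone hearts 1, 2 and 4. The means were 0.49 ± 0.09 and 1.62 ± 0.19 (SD, n = 5 each), and the difference was -1.11, or 2.16-fold. Ppargc1a had 0.35, 0.28 and 0.58 in the set A controls and 0.45 and 0.31 in the set A aldosterone hearts. It had 1.10 and 1.20 in the set B controls and 1.36, 1.30 and 1.06 in the set B aldosterone hearts. No heart overlapped, and with a difference of -0.81 the gene fell short of the limit of 1.

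**Figure D2:**
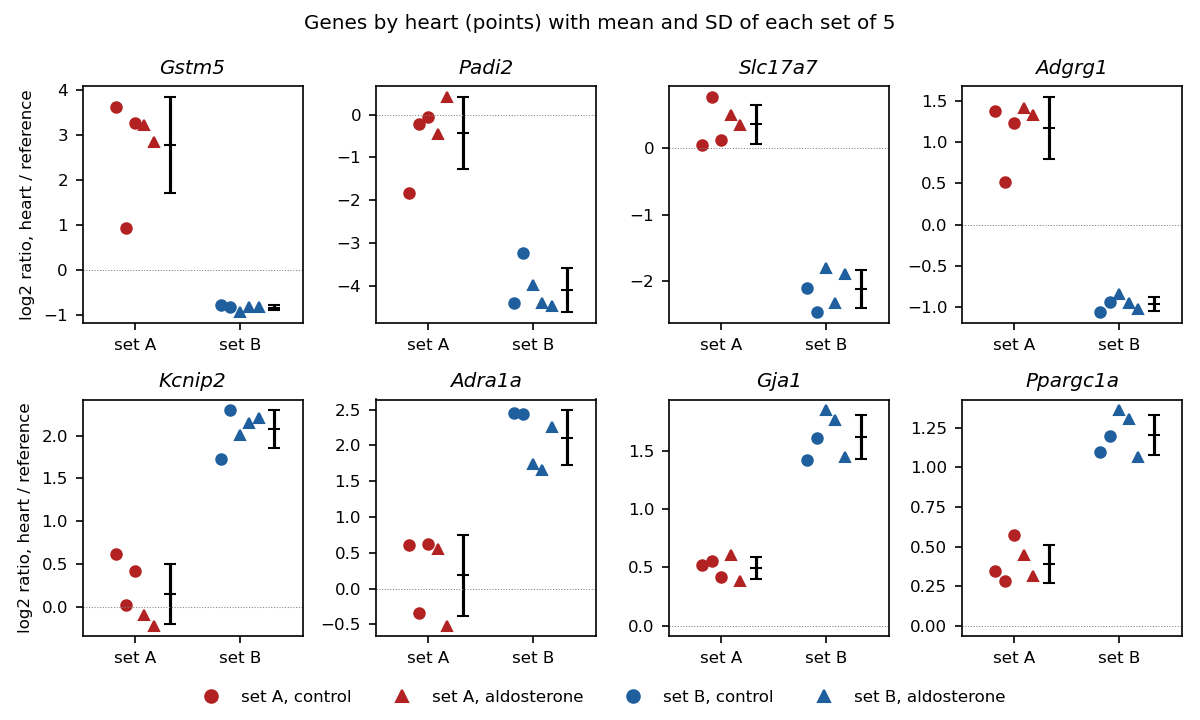
Log2 ratio of heart over reference for 8 genes in each of 10 hearts, with circles for controls, triangles for aldosterone hearts and bars for the mean and SD of each set of 5. Gstm5, Padi2, Slc17a7 and Adgrg1 were higher in every set A heart and Kcnip2, Adra1a, Gja1 and Ppargc1a in every set B heart, in both treatments.

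The remaining genes of the 12 with the largest negative difference had varied roles. Ces1d, a carboxylesterase of lipid metabolism, ran from -3.93 to -2.67 in set A and from -1.51 to -1.33 in set B (difference -2.05). Pfkfb1, which makes and breaks down the glycolysis activator fructose 2,6-bisphosphate, ran from -0.19 to 0.80 and from 1.63 to 2.12 (-1.58). Mt2, a metallothionein that binds zinc and is induced by glucocorticoids, ran from -3.69 to -2.81 and from -2.33 to -0.88 (-1.48). Cds1, an enzyme of phospholipid synthesis, ran from -3.17 to -2.06 and from -1.08 to -0.73 (-1.60). Shisa6, an auxiliary protein of glutamate receptors, ran from -3.75 to -1.76 and from -0.87 to 0.31 (-2.64), but was above background on 3 of 5 set A arrays and differed by -0.56 after loess. Genes for which no role is given here were 2210407C18Rik (-1.70), Spata48 (-1.72), Tmem150c (-1.55) and Cfap20dc (-2.48). Tmem150c was above background on 2 of 5 set A arrays and differed by -0.29 after loess, and Spata48 was above it on 4 of 5. Cfap20dc was not well above background on any set A array, so the size of its difference was not measured. Set B was 1.31-fold higher by the estimate used for Dpy19l2, which is not a minimum.

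The set differences had the same sign in both treatments for all 138 set genes, which the rule of no overlap fixes, so only their sizes are described. For Kcnip2 set A was lower by 1.66 among controls and by 2.28 among aldosterone hearts. For Gja1 the differences were -1.02 and -1.19, and for Slc17a7 they were 2.60 and 2.43. For Dupd1 they were 1.35 and 2.74, and for Padi2 3.11 and 4.25. A test of the set by treatment interaction called 0 of 22048 genes (limma, Benjamini-Hochberg, smallest adjusted p = 0.999). At an unadjusted p under 0.05 it had 858 genes (3.89%). The contrast was not part of the rule, but it was computed from the same hearts whose values gave the sets, and cells of 2 or 3 hearts limit what it can detect.

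**Figure D3:**
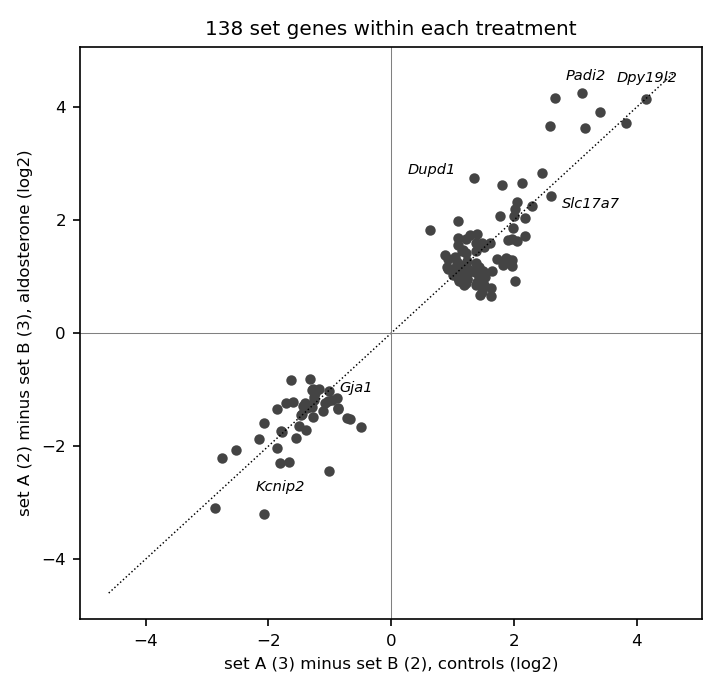
Set A minus set B on the log2 scale for the 138 set genes, among the 5 controls (horizontal axis, 3 against 2) and among the 5 aldosterone hearts (vertical axis, 2 against 3), with a dotted line of equal values. Every point lies in the lower left or upper right quadrant, as the rule of no overlap requires, and Dupd1, at 1.35 and 2.74, lies above the line.

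Counts of list members without overlap are read against the shares over all genes, 7% higher and 4.8% lower in set A. Among 22 measured genes of repolarising potassium channels, 2 were higher (9.09%) and 2 lower (9.09%), 17 had a negative difference, and the median was -0.14 against -0.01 over all genes. The mean over this list lay between 0.94 and 1.01 in set A and between 1.13 and 1.26 in set B. Besides Kcnip2 these were Abcc9, the regulatory subunit of the ATP-sensitive potassium channel of ventricular and vascular muscle (-0.52), the inward rectifier gene Kcnj12 (0.55) and Abcc8, another such regulatory subunit (0.25). The pore-forming genes that partner KChIP2, Kcnd2 and Kcnd3, differed by -0.37 and -0.11 with overlap. Of 20 gap junction and intercalated disc genes, 4 were lower (20%) and 1 higher (5%), and the median was -0.08. The list means also did not overlap, at 1.21 to 1.30 and 1.35 to 1.44. The 3 with the largest difference after Gja1 were the desmosomal genes Pkp2 (-0.56) and Dsp (-0.44) and the catenin gene Ctnna1 (-0.31). Kcnip2, Gja1 and, in a list below, Ppargc1a are markers of the sets. The counts and means of their lists therefore draw in part on values that marked the sets.

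In the calcium and sodium lists all genes without overlap were lower in set A. This holds for list members only. Outside the lists, Ryr1 (3.41, dim in set B) and the calcium channel subunit gene Cacnb1 (1.13) were higher in set A without overlap. Among 20 calcium handling genes, 3 were lower (15%). Ryr2, the calcium release channel of heart muscle, ran from 1.62 to 2.02 in set A and from 2.57 to 3.02 in set B (-0.94). Pln, which restrains the calcium pump of the sarcoplasmic reticulum, differed by -0.63, and Trdn, which anchors that release channel's complex, by -0.22. Of 15 sodium genes, 2 were lower (13.3%), among them the sodium pump subunit Atp1b1 (-0.44). Each gene was represented by 1 probe, and for Trdn the mean of all its kept probes had the opposite sign (0.29).

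Genes of fuel use had more negative than positive differences, against 52.9% negative over all genes. Of 17 PGC-1 coactivators and their nuclear receptors, 12 were negative, 5 were lower (29.4%) and 1 higher (5.88%) without overlap, with Esrra (-0.31), which encodes the receptor ERRalpha, Ppara (-0.30), the fatty acid sensing receptor PPARalpha, and the mitochondrial deacetylase gene Sirt3 (-0.29) next to Ppargc1a. Of 26 fatty acid oxidation genes, 6 were lower (23.1%) and 1 higher (3.85%), and 22 had negative differences (median -0.23). Mlycd, which removes malonyl-CoA, the brake on mitochondrial fat entry, differed by -0.59, and Hadha, a subunit of the trifunctional enzyme, by -0.43. The fatty acid carrier Fabp3 was listed as higher, but its spots were saturated on all 9 arrays and no fold is given. Of 28 oxidative phosphorylation genes 26 were negative (median -0.11), and 1 (3.57%), the complex II subunit Sdhd (-0.26), did not overlap, below the share over all genes.

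Of 24 glucose genes 16 were negative, 3 were lower (12.5%) and 2 higher (8.33%) in set A, the last near the share over all genes. The lower ones were Pfkfb1 and the hexokinase genes Hk1 (-0.42) and Hk2 (-0.41), and the higher ones included the phosphofructokinase gene Pfkl (0.41). Of 16 hypoxia response genes, 2 were higher, the carbonic anhydrase gene Car9 (0.44) and the glucose transporter gene Slc2a1 (0.30), and 1 was lower. These counts, and those of the clock, chaperone and atrophy lists that follow, are of 0 to 2 genes and lie near what the shares over all genes give. In the circadian clock list 2 of 19 genes were higher, the output factor Hlf (0.46) and the repressor Cry2 (0.16). The red blood cell, interferon response, ribosomal protein, fibroblast, endothelial, skeletal muscle and liver lists had 0 members without overlap. Of 22 chaperone genes the lower ones were Herpud1 (-0.69) and Hsp90b1 (-0.42), both induced by stress of the endoplasmic reticulum, and of 16 ubiquitin ligase and atrophy genes Fbxo32 (-0.58) was lower and Becn1 (0.21) higher.

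Corticosteroid receptor targets were lower in set A more often than not. Of 28 measured, 25 had a negative difference, and the median was -0.22. Without overlap 5 were lower (17.9%) and 0 higher, against 4.8% and 7% over all genes. The mean over the list lay between -0.59 and -0.34 in the 5 set A hearts and between -0.21 and -0.08 in the 5 set B hearts, so the hearts did not overlap. Beside Mt2 these were Pik3r1, the regulatory subunit of phosphoinositide 3-kinase (-0.77), Ddit4, an inhibitor of mTORC1 signalling (-0.54), and Arrdc3, an arrestin-domain gene (-0.44). The list's mean had been seen to follow the sets before it was used here, so it adds no independent evidence. The receptors themselves overlapped: the glucocorticoid receptor gene Nr3c1 ran from -0.18 to -0.01 in set A and from -0.09 to 0.09 in set B, and the mineralocorticoid receptor gene Nr3c2 from 0.02 to 0.55 and from 0.21 to 0.48.

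Several further lists had 1 or 2 genes without overlap each, against 7% higher and 4.8% lower over all genes, and nothing is read from these counts. The shares were 11.8% lower for immediate early factors, 8.7% higher for antioxidant genes and 11.1% higher for atrial genes. They were 5.56% lower for ventricle factors and 4% in each direction for proliferation genes. The adipocyte, lymphocyte and kidney lists had 6.67%, 5.26% and 8.33% lower. Among 17 immediate early factors, Ier3 (-0.75), an early response gene that modulates survival signals, and Zfp36 (-0.75), whose protein destabilises inflammatory mRNAs, were lower in set A. Ier3 ran from 1.20 to 1.65 in set A and from 2.12 to 2.30 in set B, and was also the single such gene of 15 in the MAPK and calcineurin feedback list. Among 23 antioxidant genes, the glutathione peroxidase gene Gpx1 (0.50) and the peroxiredoxin gene Prdx1 (0.28) were higher. Among 18 atrial and conduction genes, Myl4 (0.58), the atrial myosin light chain, and Stard10 (0.44) were higher, and Myl4 was also the single such gene of 15 in the hypertrophy list. Its ratios were low in all hearts, at -4.30 to -3.96 in set A and -5.01 to -4.37 in set B. Irx4 (-0.43), a ventricular transcription factor, was the single gene of 18 in its list and ran from 2.21 to 2.52 and from 2.63 to 2.90. In the proliferation list the cyclin gene Ccne1 (0.48) was higher, and the helicase gene Mcm7 (-0.13) was lower but turned sign with median centring (0.0629). Single genes of the adipocyte, lymphocyte and kidney lists were Pparg (-0.22), Prf1 (-0.15) and Slc5a2 (-0.28), and Slc5a2 turned sign with slide as a block (0.0800).

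**Figure D4:**
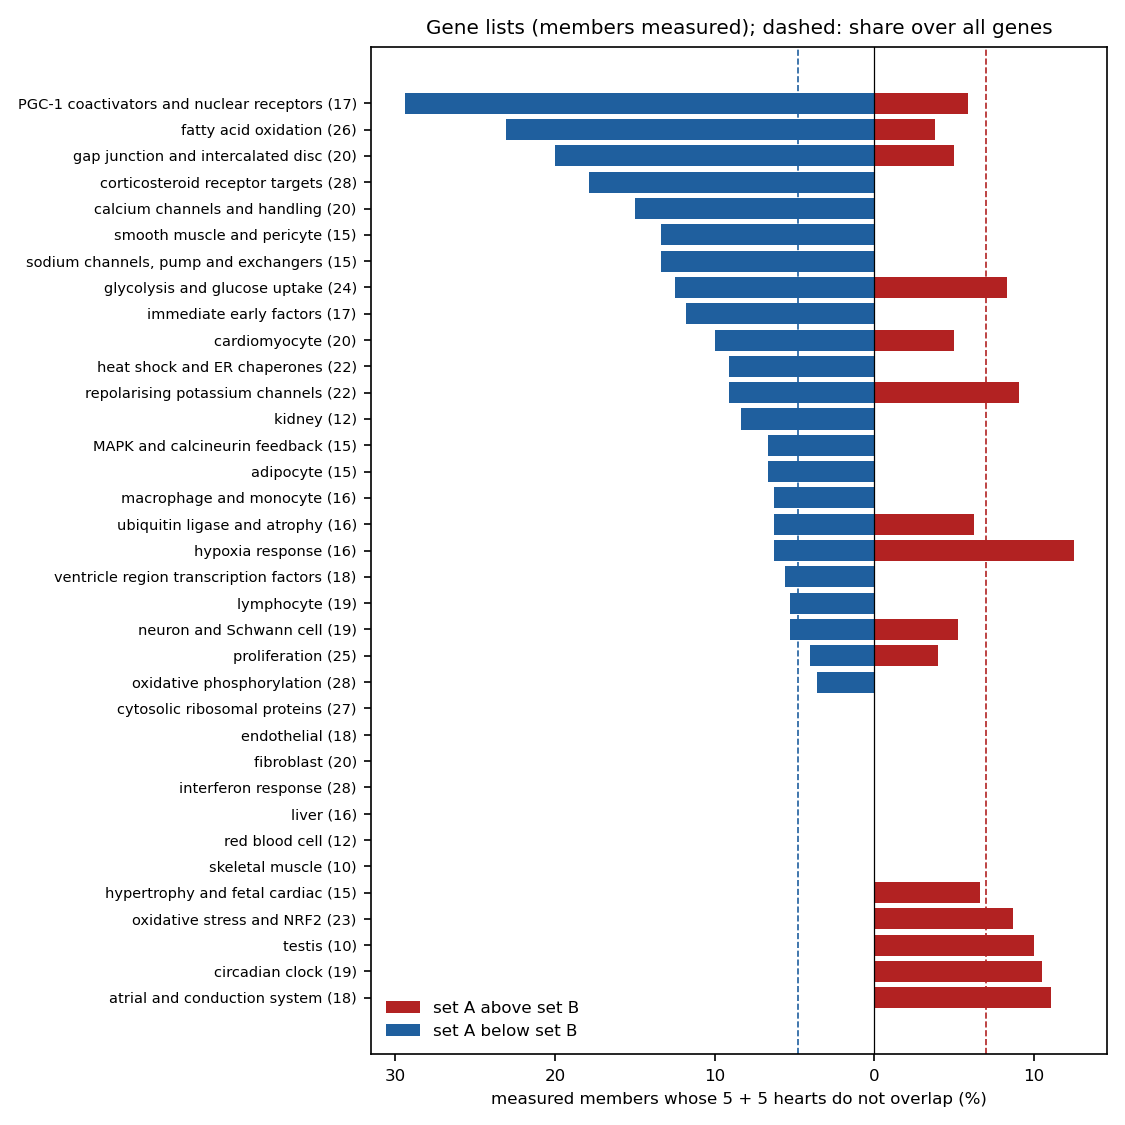
Share of the measured members of 35 gene lists whose 5 set A and 5 set B hearts did not overlap, to the right for genes higher and to the left for genes lower in set A, with dashed lines at the shares over all genes (7% and 4.8%). The PGC-1, fatty acid oxidation, intercalated disc and corticosteroid target lists reach furthest to the left, and 7 lists have no bar.

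Marker lists of cell types are given beside these differences, and in bulk RNA fewer cells of a type and less RNA per cell cannot be told apart. All hearts read as ventricle: the cardiomyocyte list averaged 1.71 to 2.10 above the reference, the list of transcription factors of ventricle regions averaged 1.30 to 1.66, and the liver list lay between -4.96 and -4.71. The cardiomyocyte list had 17 of 20 negative differences (median -0.10), and its ranges overlapped at 1.71 to 1.98 in set A and 1.92 to 2.10 in set B. In that list 1 gene was higher (5%) and 2 lower (10%) without overlap, against 7% and 4.8% over all genes. The higher gene, Mybpc3, had saturated spots on all 9 arrays, so no fold is given. The macrophage and monocyte list had 15 of 16 negative (median -0.40), with ranges of -1.13 to -0.55 in set A and -0.67 to -0.04 in set B and 1 gene without overlap, the mannose receptor gene Mrc1 (-0.41). The smooth muscle and pericyte list had 13 of 15 negative (median -0.17), with 2 lower (13.3%), among them the pericyte gene Rgs5 (-0.19). Skeletal muscle markers had 5 of 10 positive, and their mean lay between 0.82 and 1.28 in set A and between 0.69 and 1.16 in set B. That list leaves out Ryr1 (3.41) and Chrna1 (2.39), which were higher in set A, so it does not speak for all genes of skeletal muscle. In the neuron and Schwann cell list, Slc17a7 was higher (5.26%) and the noradrenaline synthesis gene Dbh (-0.99) lower (5.26%), and 14 of 19 were negative. The testis list had Dpy19l2 as its only member without overlap, with 7 of 10 negative. The part of these cell types in the set differences was not tested.

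The separation lay in the channel that held heart RNA. In the Cy5 channel alone, normalised between the 9 arrays, 138 of 138 set genes kept their sign and 132 did not overlap between the sets. The set genes were selected on ratios that hold this same Cy5 signal, so their sign in Cy5 was close to fixed. In the Cy3 channel alone, the common reference, the set genes had a median absolute difference of 0.02 and a largest of 0.21, and 0 genes passed the call rule. After background correction and loess the median absolute difference was 0.69, against 1.31 in the deposited table, and 22 genes higher and 19 lower passed in place of 94 and 44. Of the 138 set genes, 82 stayed without overlap in the same direction after loess and 81 with median centring. Gm10649, Rps6ka6, Chrna1, Dupd1, Cds1, Shisa6, Tmem150c and Cfap20dc were among those that overlapped after loess. Among named genes with dim probes, Dpy19l2 went from 4.14 to 0.68 and Ryr1 from 3.41 to 0.64. Genes measured on all 9 arrays also fell in part, with Padi2 at 2.44, Slc17a7 at 1.71, Kcnip2 at -1.34, Lrrc75b at 0.75 and Adra1a at -0.51. Gstm5 at 3.65, Adgrg1 at 2.22, Corin at -1.66 and Gja1 at -1.05 stayed close to the deposited values. A further 19 probes were kept for 18 set genes, of which 18 had the same sign and 12 did not overlap in the same direction. The exception was the chloride channel family gene Ano10, with -1.07 from its brightest probe and 0.41 from the other.

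**Figure D5:**
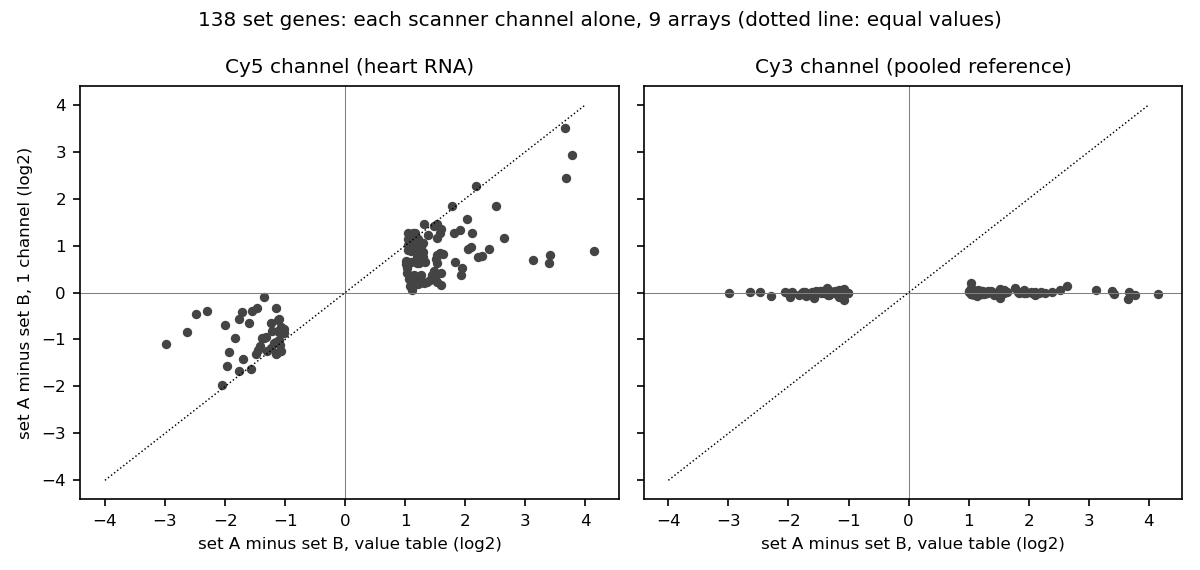
Set A minus set B on the log2 scale for the 138 set genes from the deposited ratios (horizontal axes) against the Cy5 heart channel alone (left) and the Cy3 reference channel alone (right) of 9 arrays, with a dotted line of equal values. Points follow the sign of the ratio in Cy5, many at smaller size, and stay within 0.21 of 0 in Cy3.

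Array measures other than the heart RNA signal were compared between the 5 set A and 4 set B arrays. The Cy5 local background and the share of outlier spots in either channel were still read at least in part from the heart channel. The median Cy3 signal was 115 to 124 units in set A and 121 to 125.5 in set B. The slope of the spike-in controls was 0.889 to 0.900 and 0.899 to 0.905. Over 7 measures, exact two-sided permutation tests gave p from 0.0952 to 0.841, and adjusted p from 0.278 to 0.841, where the smallest p possible was 0.0159. A p above the threshold does not show that the arrays were alike.

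The aldosterone comparison was refitted with the set as a term, which takes set differences out of the spread. It called 12 genes (0.0544%), 11 higher and 1 lower with aldosterone (limma, Benjamini-Hochberg, adjusted p under 0.05), and 2240 (10.2%) had an unadjusted p under 0.05. Of the 12, 6 were well above background on all 9 arrays and 2 were below it on every control array, so their differences in the deposited ratios differ in what they can show. Qpct, the glutaminyl cyclase gene and measured on all 9 arrays, had log2 ratios of 0.39, 0.56 and 0.41 in set A controls and 0.60 and 0.47 in set B controls. With aldosterone it had 1.09 and 1.06 in set A and 1.03, 0.99 and 1.21 in set B, so all 5 treated hearts lay above all 5 controls in both sets. Its rise was 0.58 (SE 0.06, limma adjusted p = 0.0244). Cdca5, a cohesion gene, rose by 0.86 and Trim59 by 0.62, both measured on all 9 arrays and with the same limma adjusted p of 0.0244. After loess the differences of Qpct, Cdca5 and Trim59 were 0.36, 0.12 and 0.16 on the 9 arrays, and none passed.

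Cell cycle genes among the calls were dim. Bub1b, a kinase of the spindle checkpoint, had deposited ratios 1.26 higher with aldosterone (SE 0.08, limma adjusted p = 0.00233), but was well above background on 4 of 4 aldosterone arrays and on 1 of 5 control arrays. Dtl, which targets replication proteins for degradation, was 1.17 higher (SE 0.09, limma adjusted p = 0.00595) and above background on 4 of 4 and 2 of 5. Dscc1, a cohesion gene, was above background on 4 of 4 and 0 of 5, so the size of its difference was not measured. By the estimate used for Dpy19l2 it was 1.11-fold higher with aldosterone. That fold too takes the dim signal at its measured value, with no detection limit entered, and is not a minimum. The filter of at least 4 arrays let such genes in through the treated arrays. The collagen gene Col26a1 was 1.07 higher, with 4 of 5 control arrays above background. After loess on the 9 arrays the log2 differences of Bub1b, Dtl, Dscc1 and Col26a1 were 0.050, 0.039, 0.055 and 0.049, and none passed. Of 25 measured proliferation genes, 2 passed adjustment and 17 had an unadjusted p under 0.05, all of them higher with aldosterone. This list was counted under the same filter, which favours members that are higher in treated hearts. Its count and direction are therefore a description only. In the same list 1 gene was higher and 1 lower in set A without overlap.

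Without the set term 37 genes passed, 33 of them higher with aldosterone, and 9 were shared with the 12. At an unadjusted p under 0.05 the term raised the number from 1782 to 2240. The sets were read from the same values, so p-values of the fit with the set term are too small. On the 9 scanner arrays after loess 0 genes passed and 881 had an unadjusted p under 0.05, and with probes above background on all 9 arrays 4 passed. Leaving out single hearts gave 1 to 27 calls, 1 without aldosterone heart 3 or 5 and 27 without control 3 or 5.

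Adjacent genes were looked for among the set genes. Of 102 placed in RefSeq gene order, 2 (1.96%) lay next to another, the pair Ankrd35 and Nudt17, both higher in set A (1.01 and 1.54). Of all tested genes placed, 1.32% lay next to a set gene. In promoters of the length shown above, both strands searched, the AP-1 site TGACTCA was held by 5 of 59 set genes higher in set A (8.47%) and 4 of 27 lower (14.8%), against 4.82% of 12100 tested genes. The cAMP response element TGACGTCA was held by 2 (3.39%) and 3 (11.1%), against 3.12%. The E-box CACGTG was held by 8 (13.6%) and 1 (3.7%), against 10.9%, and the glucocorticoid receptor motif AGAACA by 12 (20.3%) and 6 (22.2%), against 16.3%. No motif contains another. The D-box TTATGTAA, its variant TTACGTAA and the estrogen-related receptor element TCAAGGTCA were each found in at most 1 set gene promoter per direction. A match is a run of letters and not a shown binding site.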

How the data were processed

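The authors' deposited value table gave 1 log2 ratio per probe for 10 hearts. On the 9 scanned arrays it was the scanner's own ratio, deposited on a log10 scale, converted to log2 (correlation 0.996 to 1.00 over probes, slope 1.00). Per the file headers, spot intensity values were read with Agilent's Feature Extraction, version 10.7.3.1. Column medians were -0.01 to 0.12 and no centring was seen; the authors' averaging of spots is not described. Of 39429 probes, 26575 matched a RefSeq GRCm38.p6 gene record by accession. Probes well above background in Cy5 on at least 4 arrays were kept, with 1 probe of highest mean signal per gene, which left 22048 genes or transcripts.

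Sets were compared by limma estimates without a test (limma 3.58.1, R 4.3.3). Aldosterone and interaction tests were limma with empirical Bayes, and array measures used exact permutation. Scanner alternatives used normexp with an offset of 50. The hearts, the 35 gene lists and the motifs were chosen with earlier results of these data known. Named genes were the 5 markers, the 12 with a symbol of largest set difference in each direction without overlap, up to 4 such members per list, and up to 8 per direction that passed a test or the 4 of smallest p. The smallest-p interaction genes stand in the closing section. Each sample is a separate mouse. The number of arrays limits precision. Values of 2 genes that the naming rule takes in are not reported here; they stay in the fits and list counts.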

Additional observations from a re-analysis of the deposited data

Results flagged for a closer look

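Within the sets, 160 groups were checked for a heart that stood apart by Dixon's criterion. They held named set genes in 5 hearts and array measures on 5 set A or 4 set B arrays. A heart stood apart in 7 groups, all of them of genes, where chance gives about 1 in 20, so the number is near that of chance. Control 3 was lowest in set A for 4 of them. Its log2 ratio was 0.93 for Gstm5 against 2.86 to 3.63 in the others, -3.28 for Rps6ka6 against -0.34 to 0.15, 0.52 for Adgrg1 against 1.23 to 1.42, and 1.70 for Sdhd against 1.96 to 2.04. Aldosterone heart 5 was lowest in set A for Esrra, at 0.98 against 1.12 to 1.13. In set B, control 5 was highest for Dupd1, at 3.85 against 2.16 to 2.47, and aldosterone heart 1 was highest for Spata48, at 2.21 against 0.98 to 1.32.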

How the results depend on the processing

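The counts of set genes (94 higher and 44 lower in set A) stayed within 1.5 times with each heart centred on its median, with other filters on dim probes, with the mean of all probes and without the treatment term. Leaving out each heart gave 97 to 114 higher and 43 to 69 lower; the highest lower count was without control 5. On the 9 scanner arrays the counts fell to 22 and 19 after loess, 24 and 21 without background correction, 25 and 22 with stray backgrounds replaced, 28 and 13 with median centring, 33 and 24 in Cy5 alone, 26 and 27 with slide as a block and 0 and 0 in Cy3 alone; the cause was not tested. With no minimum they were 1543 and 1059, and with a minimum of 0.5 they were 369 and 221. Of 1742 values of 73 named set genes under the alternatives, 1738 kept their sign. The 4 that turned were Mcm7 (0.0629) with median centring, Fabp3 (-0.00154) in Cy5 alone, Trdn (0.29) with the mean of probes and Slc5a2 (0.0800) with slide as a block.

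The 12 aldosterone calls became 0 after loess, 2 without background correction, 0 with median centring, 1 in Cy5 alone, 2 with no filter on dim probes, 4 with probes above background on all 9 arrays, 0 with slide as a block and 37 without the set term. Leaving out each heart gave 1 to 27 calls. Interaction calls stayed at 0 except without control 2 (2) and control 5 (1), a range of 0 to 2. The interaction turned sign for Dgkb (-0.39 after loess, -0.0860 with median centring, -0.52 with slide as a block) and for Ifna7 (0.0238, 0.0476 and 0.26, and 0.15 in Cy5 alone). It also turned for ENSMUST00000145987 (0.0887, 0.0701, 0.24 and 0.11 in the same order) and ENSMUST00000136217 (0.00577 in Cy5 alone, 0.0189 with slide as a block). The share of Cy3 spots above background, 0.27 percentage points higher in set A, was -0.77 without control 2, -0.0676 without aldosterone heart 1 and at most 1.37, without aldosterone heart 2.

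Same-numbered control and aldosterone hearts correlated at 0.00, 0.16, 0.28, -0.13 and -0.22 in their deviations from the group mean. Numbers 2 and 3 joined hearts of the same set, and numbers 1, 4 and 5 joined hearts of different sets. The values follow the sets, so they cannot show whether the numbers pair the hearts. With the sample number as a replicate block, 94 genes were higher and 40 lower in set A, the aldosterone calls were 0 and the interaction calls 0. Probes dim in 1 set limit the size of their differences.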

Other observations

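In the sample titles, the 2 controls of set B carry a space after the group word that the 3 controls of set A do not carry.

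The interaction genes of smallest p, none of which passed adjustment (limma adjusted p = 0.999 each), included Dgkb, a diacylglycerol kinase gene, whose aldosterone difference was larger by 1.24 (SE 0.16) in set A than in set B. The interferon gene Ifna7 had a difference of -2.08 (SE 0.37), from controls at 2.51, 2.93 and 2.31 in set A and 1.17 and 0.61 in set B and aldosterone hearts at 0.95 and 0.48 and at 0.82, 1.11 and 1.37. Rab7b, a small GTPase gene, had 0.72 (SE 0.13) and Rbm41, an RNA-binding protein gene, -1.33 (SE 0.27).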
